A study of Homo sapiens with 12 samples.

Results

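ARRDC4, TXNIP and ARRDC1 to ARRDC3 are alpha-arrestins, and MLXIP, MLXIPL and MLX are the transcription factors of glucose sensing that control some of them. These 8 genes were taken by symbol. Each was measured by 1 probe set, giving 8 of the 33297 probe sets on the array, and all 8 genes passed the filter on dim genes that left 13813 of 18417 genes. ARRDC4 was chosen with its high level under AICAR in both lines already known, so its AICAR values are described here with no test. The other 7 were taken by family or by role, with earlier results of these data known.

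Alpha-arrestins are adaptor proteins that tie ubiquitin ligases of the NEDD4 family to membrane proteins and so steer the uptake and breakdown of receptors and transporters. TXNIP and ARRDC4 lower glucose uptake by cells, and TXNIP also binds and inhibits thioredoxin. MLXIP encodes MondoA and MLXIPL encodes ChREBP, the form of most note in liver. Each pairs with MLX, responds to phosphorylated glucose, and binds carbohydrate response elements, which hold a pair of E-boxes, in the promoters of genes such as TXNIP and ARRDC4.

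The cells were HepG2, an established human hepatoma cell line. One line carried a small-hairpin RNA that targets p53 (sh-p53) and the other a control hairpin of no relevant target (sh-con). Cells of both lines received DMSO (the control), Nutlin at 10 uM or AICAR at 0.5 mM over 24 h. This gave 6 groups of 2 arrays, from cells plated as biological duplicates. Nutlin keeps MDM2 from binding p53, AICAR is a nucleoside that cells turn into an activator of the energy-sensing kinase AMPK, and the design calls both p53 stimulators. With a single line per hairpin, the hairpin and other differences between the lines cannot be told apart. In bulk RNA a smaller share of cells expressing a gene and less of its RNA per cell cannot be told apart either. Group values below are log2 values after RMA, the robust multi-array average, and the number of arrays limits their precision.

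The array medians over all probe sets lay between 5.64 and 5.84. They were highest on the AICAR arrays, at 5.76 to 5.84, and lay at 5.64 to 5.68 on the DMSO arrays. Duplicate arrays had r = 0.983 to 0.994 across genes, which are not independent replicates. As a check of the labels, CDKN1A, which p53 induces, had means of 6.99 with DMSO, 9.84 with Nutlin and 9.26 with AICAR in sh-con, and of 6.23, 7.62 and 7.99 in sh-p53. It was thus lower in sh-p53 under each treatment, and within sh-p53 still higher with either compound than with DMSO. Of 8 hepatocyte markers 7 were measured, at 10.55 to 13.06 on every array. None of 4 endothelial markers passed the filter on dim genes. Of 5 fibroblast markers 3 passed, the list lay at 2.81 to 6.81, and none was called with AICAR or Nutlin by limma. At an unadjusted p under 0.05, 1 was higher with Nutlin in sh-con and 1 with AICAR in each line. Of 5 leukocyte markers 3 passed, and CD68, a lysosomal glycoprotein gene of macrophages, was the only one of them to change with AICAR, at 0.59 ± 0.13 in sh-con and 0.89 ± 0.13 in sh-p53, as limma log2 differences ± SE (adjusted p = 0.00198 and 5.16e-05). PTPRC, the defining leukocyte marker, lay at 3.11 to 3.38 over all arrays, below the dim level of 4.58. LYZ, of the same list, lay at 12.24 to 12.59 on every array, within the range of the hepatocyte markers. The leukocyte list thus spanned 3.11 to 12.59, and its part in the results below was not tested.

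The promoter windows of ARRDC4 and TXNIP are shown because both genes stood highest under AICAR, and a stretch of the MLX promoter because it holds the same E-box letters as that of ARRDC4. All are from RefSeq on GRCh38.p14 and read 5′ to 3′ along the gene. The ARRDC4 window is chr15:97960453-97960752 on the plus strand, the TXNIP window chr1:145996530-145996829 on the minus strand, and the MLX stretch chr17:42567033-42567072 on the plus strand. The first 2 start at position -250, counted from the transcription start site, and hold 300 bases. Capitals mark CACGTG, a pair of CACGNG letters with 5 bases between them, and CCAAT on either strand.
ARRDC4: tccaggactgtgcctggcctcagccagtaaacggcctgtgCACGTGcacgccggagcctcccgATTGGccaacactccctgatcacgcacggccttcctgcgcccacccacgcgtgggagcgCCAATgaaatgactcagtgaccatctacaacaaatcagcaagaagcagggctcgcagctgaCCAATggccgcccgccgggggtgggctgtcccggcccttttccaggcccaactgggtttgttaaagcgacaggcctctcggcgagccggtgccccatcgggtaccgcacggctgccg
TXNIP: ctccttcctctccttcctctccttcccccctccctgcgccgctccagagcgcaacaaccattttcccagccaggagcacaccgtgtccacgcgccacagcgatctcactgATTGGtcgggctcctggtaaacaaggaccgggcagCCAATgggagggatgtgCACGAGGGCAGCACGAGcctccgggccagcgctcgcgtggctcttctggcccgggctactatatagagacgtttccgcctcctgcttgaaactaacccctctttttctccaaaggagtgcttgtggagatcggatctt
MLX: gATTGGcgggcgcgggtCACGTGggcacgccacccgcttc

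In the ARRDC4 window CACGTG began at position -210 from the start site, and CCAAT was found 3 times, at -187, -128 and -67. In the TXNIP window the pair began at -88 and read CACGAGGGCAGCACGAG, with CCAAT at -140 and -105. The forkhead letters GTAAACA stood between these, at -124. The MLX promoter held CACGTG at -50 and CCAAT at -66. Letters were searched on both strands in 35116 promoter windows of the same length, 11 of them belonging to the 8 genes.

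CACGTG was in 7.26% of all windows and in those of ARRDC4 and MLX. The paired CACGNG letters, which were written down after the TXNIP window had been read, were in 0.057% of all windows and in 1 of the 11. CCAAT was in 34.6% of all windows and in 7 of the 11, 1 window for each gene except MLXIPL. GTAAACA was in 3.42% of all windows and in a second gene, ARRDC3. Another form of carbohydrate response element letters, CANGNG and CNCNTG with 5 bases between them, was in 0.564% of all windows and in none of the 11. This form must end in TG, so the paired letters of TXNIP, which end in AG, cannot match it. These are matches of letters in a short window, and no binding was measured.

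**Figure D1:**
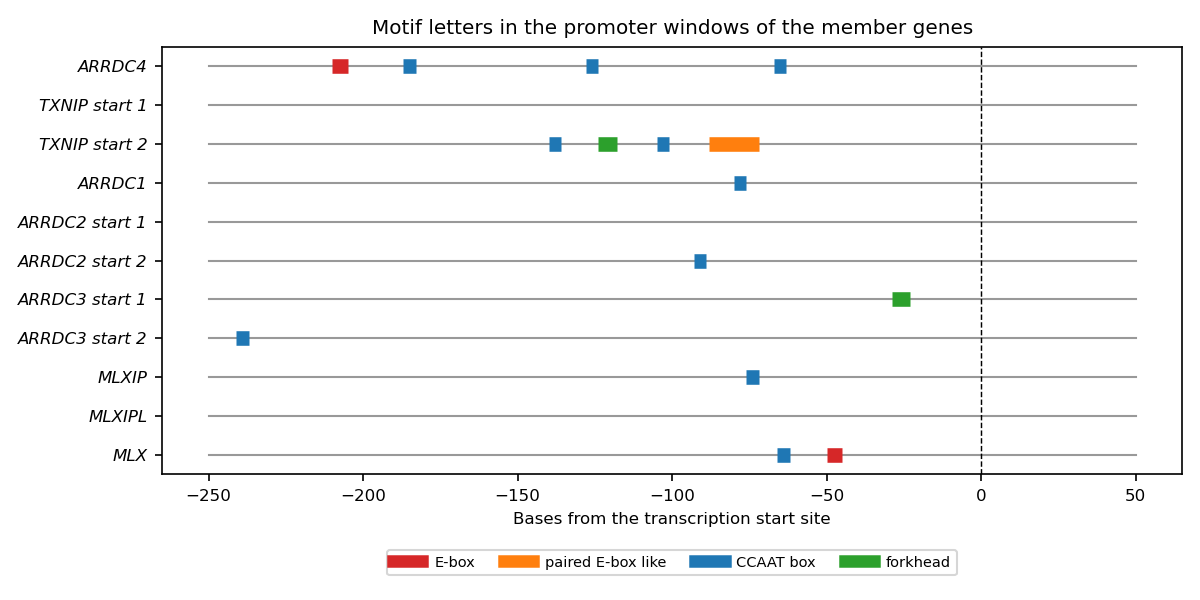
Promoter windows of the 8 genes, with bases from the transcription start site on the x axis and 1 line for each window; blocks mark where motif letters were found on either strand. ARRDC4 and MLX hold an E-box, 1 TXNIP window holds the paired E-box like letters, and the MLXIPL window holds none of the motifs.

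ARRDC4 encodes an alpha-arrestin and was the member with the widest range, 3.98 between its highest and lowest group means on the log2 scale. In sh-con it stood at 5.88 and 5.91 on the DMSO arrays, 7.02 and 6.53 on the Nutlin arrays, and 9.95 and 9.69 on the AICAR arrays. In sh-p53 it stood at 6.11 and 5.61 with DMSO, 6.36 and 6.38 with Nutlin, and 9.67 and 10.01 with AICAR. All 4 AICAR arrays lay above the other 8, and in each line both Nutlin arrays lay above both DMSO arrays.

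The AICAR values of ARRDC4 were 15.2-fold those of DMSO in sh-con, a log2 difference of 3.92 ± 0.19 (SE of the limma fit, 2 arrays against 2). In sh-p53 they were 15.7-fold, a difference of 3.98 ± 0.19, and these differences ranked 3 and 1 among all genes tested. Both are given as a description, since ARRDC4 was chosen for them. The difference between the lines in this response was 0.05 ± 0.26 (95% confidence interval -0.51 to 0.61), with no settled sign: it was 0.301 without sh-p53 DMSO replicate 1 and -0.197 without sh-p53 DMSO replicate 2. Under AICAR the lines themselves differed by 0.02 ± 0.19 for ARRDC4 (sh-p53 minus sh-con, interval -0.38 to 0.41), also as a description.

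With Nutlin in sh-con ARRDC4 was higher than with DMSO by 0.88 ± 0.19 on the log2 scale or 1.84-fold (limma, adjusted p = 0.00174). The Nutlin arrays played no part in the choice of ARRDC4, but the DMSO arrays they are set against did, so this call is not independent of that choice. Leaving out 1 array at a time gave 0.636 to 1.13, called each time. In sh-p53 the difference was 0.51 ± 0.19, which did not pass (adjusted p = 0.569). The difference between the lines in the Nutlin response was -0.38 ± 0.26 and did not pass either (interval -0.93 to 0.18, adjusted p = 0.48). In DMSO the lines differed by -0.03 ± 0.19 for ARRDC4 (interval -0.43 to 0.36).

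TXNIP encodes the thioredoxin-interacting protein, which AMPK is known to mark for breakdown. In sh-con it stood at 9.84 and 9.83 with DMSO, 10.5 and 9.95 with Nutlin, and 11.54 and 11.46 with AICAR. In sh-p53 it stood at 9.99 and 9.90 with DMSO, 10.21 and 10.00 with Nutlin, and 11.24 and 11.29 with AICAR. The 4 AICAR arrays again lay above the other 8, and the arrays with Nutlin in sh-con were further apart than those of any other TXNIP group.

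With AICAR, TXNIP rose by 1.67 ± 0.16 in sh-con, which is 3.17-fold (limma, adjusted p = 4.28e-07). It rose by 1.32 ± 0.16 in sh-p53, which is 2.49-fold (adjusted p = 6.36e-06). The difference between these responses was -0.35 ± 0.23 and did not pass (interval -0.83 to 0.13, adjusted p = 0.595). With any 1 array left out, the rise lay between 1.63 and 1.71 in sh-con and between 1.27 and 1.36 in sh-p53.

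With Nutlin, TXNIP differed from DMSO by 0.39 ± 0.16 in sh-con and did not pass (adjusted p = 0.0783). Without sh-con Nutlin replicate 2 the difference was 0.662 and passed. That array, at 9.95, lay close to the DMSO arrays, at 9.84 and 9.83. The size of the difference thus rested largely on sh-con Nutlin replicate 1, at 10.5. On all arrays the difference passed after quantile normalisation again (0.487, limma, adjusted p = 0.0352) and with an intensity trend in the prior (adjusted p = 0.0289). It also passed with only the compared groups in the fit (adjusted p = 0.0455). In sh-p53 the TXNIP difference with Nutlin was 0.16 ± 0.16 (adjusted p = 0.949).

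**Figure D2:**
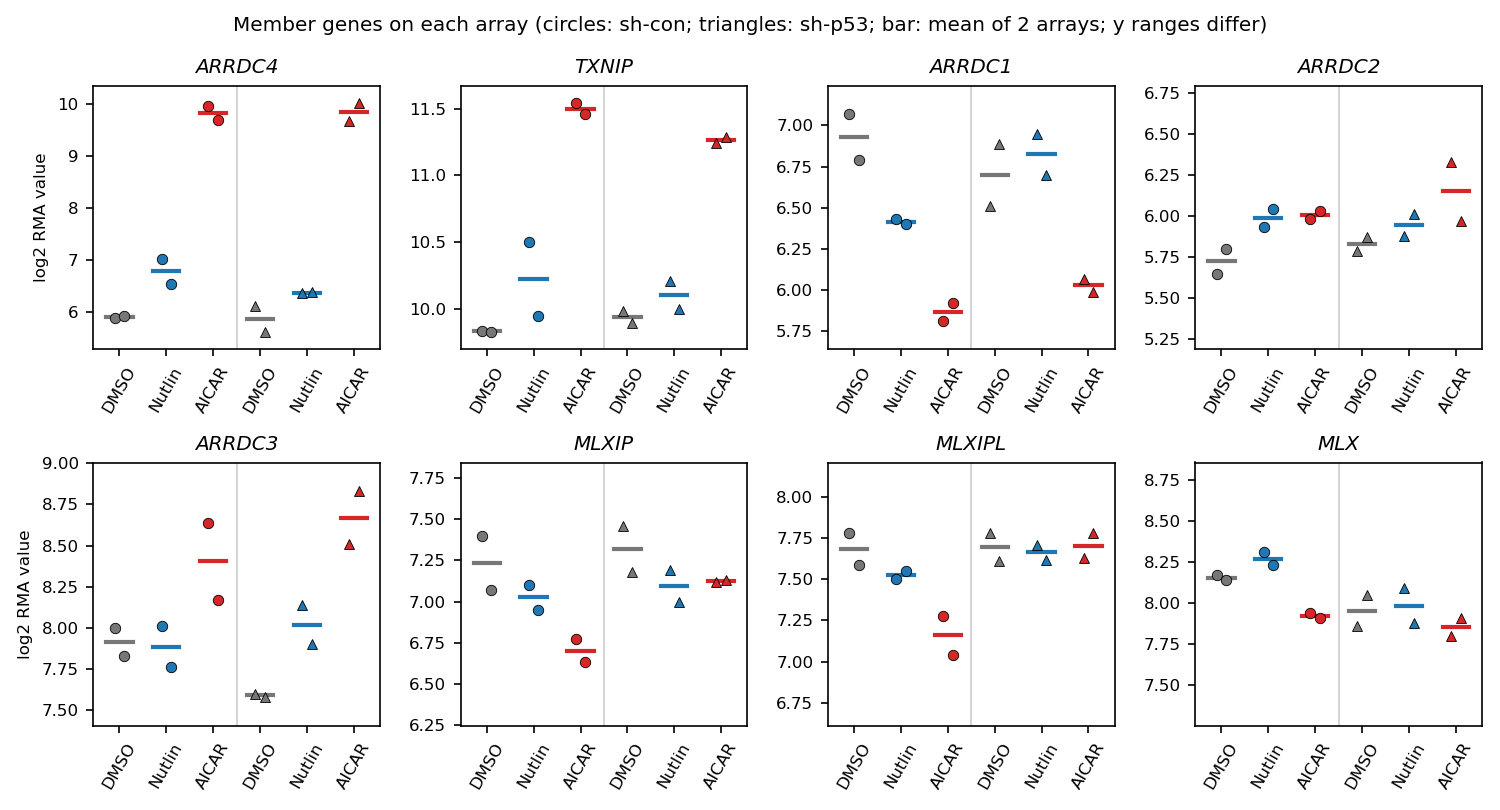
log2 RMA value (y axis, whose range differs between panels) of each of the 8 genes on every array, by treatment, for sh-con (circles) and sh-p53 (triangles); bars are means of 2 arrays. The red AICAR points of ARRDC4 (9.67 to 10.01) and TXNIP (11.24 to 11.54) lie above all other points of their panel, and those of ARRDC1 (5.81 to 6.07) lie below.

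ARRDC1, an alpha-arrestin known for a role in the release of vesicles at the cell surface, went the other way. It stood at 7.07 and 6.79 with DMSO, 6.43 and 6.40 with Nutlin, and 5.81 and 5.92 with AICAR in sh-con. In sh-p53 it stood at 6.51 and 6.89 with DMSO, 6.95 and 6.70 with Nutlin, and 6.07 and 5.99 with AICAR. The 4 AICAR arrays lay below the other 8, and Nutlin set the arrays apart from DMSO in sh-con while in sh-p53 they overlapped.

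ARRDC1 fell by 1.07 with AICAR in sh-con (SE 0.16, limma, adjusted p = 3.43e-05) and by 0.67 in sh-p53 (SE 0.16, adjusted p = 0.00248). The call in sh-p53 was lost without sh-p53 DMSO replicate 2 (adjusted p = 0.0646). With Nutlin in sh-con it fell by 0.52 (SE 0.16, adjusted p = 0.0185). That call was lost without sh-con DMSO replicate 1 (adjusted p = 0.223), sh-con Nutlin replicate 1 (0.0573) or sh-con Nutlin replicate 2 (0.0985). In sh-p53 the Nutlin difference was 0.13 ± 0.16 (adjusted p = 0.959). The difference between the lines was 0.64 ± 0.22 for Nutlin and did not pass (interval 0.18 to 1.11, limma, adjusted p = 0.0915). It passed without sh-p53 DMSO replicate 2 (0.833), which left only the lower sh-p53 DMSO array, at 6.51 beside 6.89. For AICAR the difference between the lines was 0.40 ± 0.22 (adjusted p = 0.489).

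ARRDC3, an alpha-arrestin that binds beta-adrenergic receptors, stood at 8.0 and 7.83 with DMSO, 8.01 and 7.76 with Nutlin, and 8.64 and 8.17 with AICAR in sh-con. In sh-p53 it stood at 7.60 and 7.58 with DMSO, 8.14 and 7.90 with Nutlin, and 8.51 and 8.83 with AICAR. The AICAR arrays were the highest of each line, and in sh-p53 the Nutlin arrays also lay above the DMSO arrays. With AICAR it rose 2.11-fold in sh-p53, by 1.08 ± 0.17 (limma, adjusted p = 8.63e-05).

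In sh-con the ARRDC3 rise was 0.49 ± 0.17 (adjusted p = 0.0306). This call was lost without sh-con DMSO replicate 1 (adjusted p = 0.0613), sh-con DMSO replicate 2 (0.159) or sh-con AICAR replicate 1 (0.259, where the difference was 0.257), and when array medians were set equal (0.16). The AICAR responses of ARRDC3 differed between the lines by 0.58 ± 0.24, which did not pass (interval 0.08 to 1.09, adjusted p = 0.3). With Nutlin in sh-p53 the difference was 0.43 ± 0.17 (adjusted p = 0.668), and in sh-con it was -0.03 ± 0.17 (adjusted p = 0.91).

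ARRDC2, the remaining alpha-arrestin of the set, lay between 5.65 and 6.33 on all arrays. Its AICAR arrays lay above the DMSO arrays in both lines, with differences of 0.28 ± 0.14 in sh-con (adjusted p = 0.138) and 0.32 ± 0.14 in sh-p53 (adjusted p = 0.0921). Neither passed with limma, though the second did without sh-p53 AICAR replicate 2 (0.495). That array, at 5.97, lay near the sh-p53 DMSO arrays, at 5.79 and 5.87. The size of the second difference thus rested largely on sh-p53 AICAR replicate 1, at 6.33. The Nutlin differences of ARRDC2 were 0.26 ± 0.14 and 0.11 ± 0.14 (adjusted p = 0.179 and 0.963).

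Of the transcription factors, MLXIPL, the gene of ChREBP, stood at 7.78 and 7.59 with DMSO, 7.50 and 7.55 with Nutlin, and 7.28 and 7.04 with AICAR in sh-con. In sh-p53 it stood at 7.78 and 7.61 with DMSO, 7.71 and 7.62 with Nutlin, and 7.63 and 7.78 with AICAR. Its lowest arrays were the sh-con AICAR pair, while the 3 groups of sh-p53 overlapped. It fell by 0.53 with AICAR in sh-con (SE 0.14, limma, adjusted p = 0.00707) and differed by 0.01 ± 0.14 in sh-p53 (interval -0.29 to 0.31, adjusted p = 0.958).

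The difference between these MLXIPL responses was 0.54 ± 0.20, with an interval of 0.12 to 0.96, and did not pass over all genes (adjusted p = 0.236). Under AICAR itself MLXIPL was higher in sh-p53 than in sh-con by 0.55 ± 0.14 (adjusted p = 0.0208). That call was lost without sh-con AICAR replicate 2 (adjusted p = 0.125), sh-p53 AICAR replicate 1 (0.0574) or sh-p53 AICAR replicate 2 (0.152), and with only the compared groups in the fit (0.0631). The fall in sh-con was lost without sh-con DMSO replicate 1 (adjusted p = 0.102) or sh-con AICAR replicate 2 (0.081).

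MLXIP, the gene of MondoA, stood at 7.40 and 7.07 with DMSO, 7.10 and 6.95 with Nutlin, and 6.77 and 6.63 with AICAR in sh-con. In sh-p53 it stood at 7.46 and 7.18 with DMSO, 7.19 and 7.0 with Nutlin, and 7.12 and 7.13 with AICAR. The sh-con AICAR arrays were again the lowest. MLXIP fell by 0.54 with AICAR in sh-con (SE 0.15, limma, adjusted p = 0.00985). It no longer passed with sh-con DMSO replicate 1 (adjusted p = 0.173) or sh-con AICAR replicate 2 (0.0654) left out.

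In sh-p53 the AICAR difference of MLXIP was -0.19 ± 0.15 (adjusted p = 0.331), and the difference between the lines was 0.35 ± 0.22 (adjusted p = 0.565). With Nutlin, MLXIP differed by -0.21 ± 0.15 in sh-con and -0.22 ± 0.15 in sh-p53 (adjusted p = 0.302 and 0.929). MLX, the shared partner of both factors, ranged from 7.80 to 8.31 over all arrays. Its AICAR differences were -0.23 ± 0.14 in sh-con and -0.10 ± 0.14 in sh-p53 (adjusted p = 0.187 and 0.569), and its Nutlin differences were 0.12 ± 0.14 and 0.02 ± 0.14 (adjusted p = 0.528 and 0.993).

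**Figure D3:**
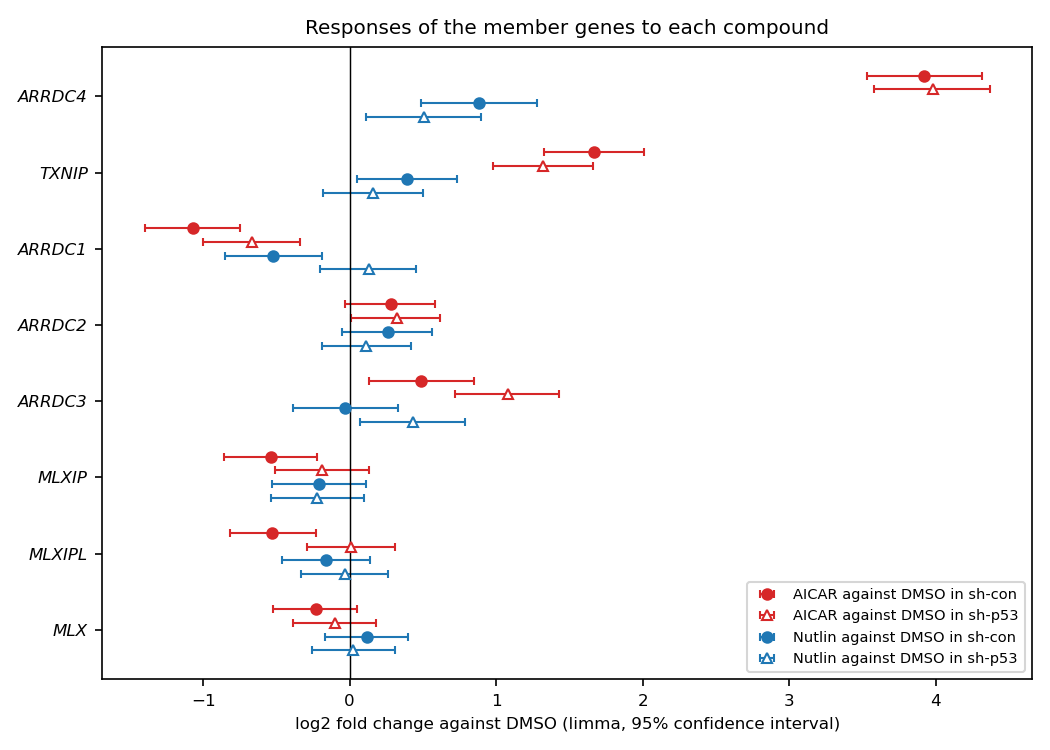
log2 fold change against DMSO (x axis) of each of the 8 genes for AICAR (red) and Nutlin (blue), in sh-con (filled circles) and sh-p53 (open triangles), with 95% confidence intervals of the limma fit. ARRDC4 lies near 4 with AICAR in both lines (3.92 and 3.98), ARRDC1 and TXNIP lie on opposite sides of 0 with AICAR, and MLXIPL stands at -0.53 in sh-con and at 0.01 in sh-p53.

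Counted over the set, with AICAR in sh-con 2 of the 7 tested members rose and 3 fell. Of all genes 37.8% were called, 14.6% higher and 23.2% lower. All 7, and ARRDC4, had AICAR arrays that did not overlap with DMSO, against 69.9% of all genes. With AICAR in sh-p53 2 of 7 rose and 1 fell, against 37.8% of all genes called, 16.2% higher and 21.6% lower, and 5 of 7 did not overlap, against 73.2%. Because ARRDC4 was picked on these comparisons, nothing is read from these shares. Setting the array medians equal shifted all AICAR differences by a median of -0.141 in sh-con and -0.152 in sh-p53. It also took the share of higher genes among all calls from 38.7% to 22% and from 42.8% to 23.1%.

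With Nutlin in sh-con 1 of 8 members rose (ARRDC4) and 1 fell (ARRDC1), against 30.3% of all genes called, 11.3% higher and 18.9% lower. Arrays of 6 members did not overlap, against 73.7% of all genes. With Nutlin in sh-p53 no member passed by limma, though 2 had an unadjusted p under 0.05, both higher (ARRDC4 and ARRDC3). Of all genes 0.0796% were called there, all of them higher, and 4 members did not overlap, against 34.9%. The median log2 difference of the members with Nutlin in sh-con was 0.045, beside 0.0123 for all genes tested. The AICAR and Nutlin comparisons of a line share its DMSO arrays, which played a part in the choice of ARRDC4. Nothing is therefore read from the Nutlin shares either.

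Between the lines in DMSO none of the 8 passed by limma, also at an unadjusted p under 0.05, against 0.644% of all genes (0.261% higher in sh-p53 and 0.384% lower), and 3 did not overlap, against 37.6%. In Nutlin none passed by limma (1 higher and 2 lower unadjusted), against 21.4% (13.1% higher and 8.31% lower), and 4 did not overlap, against 58.7%. In AICAR only MLXIPL passed, against 8.83% (4.13% higher and 4.69% lower), and 4 did not overlap, against 43.3%. For the difference between the lines in the Nutlin response none passed by limma (1 of 8 higher unadjusted), against 7.4% of all genes (4.67% higher and 2.73% lower). For that in the AICAR response none passed by limma (2 of 7 higher unadjusted), against 1.01% (0.304% higher and 0.709% lower).

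Ordered by group mean, ARRDC4 ran from 5.86 in sh-p53 DMSO and 5.90 in sh-con DMSO through 6.37 in sh-p53 Nutlin and 6.78 in sh-con Nutlin to 9.82 in sh-con AICAR and 9.84 in sh-p53 AICAR. Neighbours within the DMSO pair and within the AICAR pair overlapped. TXNIP ran from 9.83 in sh-con DMSO through 9.94 in sh-p53 DMSO, 10.11 in sh-p53 Nutlin and 10.22 in sh-con Nutlin to 11.26 in sh-p53 AICAR and 11.50 in sh-con AICAR. The TXNIP Nutlin groups overlapped, and both sh-con AICAR arrays lay above both sh-p53 AICAR arrays (difference -0.24 ± 0.16, limma, adjusted p = 0.433).

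Genes with a pattern like these were found by the root mean square difference over the 6 group means, after centring each gene on its own mean, among the 13812 other genes tested. Nearest to ARRDC4 were HBEGF, an EGF receptor ligand gene (0.331 on the log2 scale), RND1 (0.389), HCP5, a long noncoding RNA gene (0.476), ZNF280A (0.505) and CSRNP2 (0.548). HBEGF differed from DMSO by 3.62 and 3.23 with AICAR in sh-con and sh-p53, but by 0.06 and -0.09 with Nutlin, where ARRDC4 differed by 0.88 and 0.51. Nearest to TXNIP were ATF3, a stress-induced transcription factor gene (0.0602), CA2, a carbonic anhydrase gene (0.0637), SYNM, an intermediate filament gene (0.0744), SNORD13P2 (0.0859) and GTF2B, a general transcription factor gene (0.127). ATF3 differed by 1.47 and 1.37 with AICAR and by 0.32 and 0.19 with Nutlin. TXNIP and ARRDC4 lay 1.08 apart, which ranked TXNIP 73 in likeness to ARRDC4 but ARRDC4 12777 in likeness to TXNIP. This distance was not scaled for the size of the changes. ARRDC1, which fell with AICAR, lay 1.04 from TXNIP and so nearer than ARRDC4. The ranks therefore cannot tell a different pattern from a larger change.

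The other genes of the pathway did not share 1 direction. Of 22 liver ChREBP target genes 19 were tested, and with AICAR in sh-con 2 rose and 9 fell, where 14.6% of all genes rose and 23.2% fell. The list's median was -0.215 beside 0.0353 for all genes. G6PC1, whose enzyme frees glucose from its phosphate, rose by 1.7 ± 0.15 (limma, adjusted p = 1.5e-07), and KLF10, a glucose-responsive repressor, by 1.26 ± 0.14 (adjusted p = 2.01e-06). SLC2A2, the liver glucose transporter gene, fell, at -1.5 ± 0.15 (adjusted p = 7.04e-07). The count that fell was 5 without sh-con DMSO replicate 1 and 5 without sh-con AICAR replicate 2.

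With AICAR in sh-p53 7 of the 19 ChREBP targets rose and 4 fell, where 16.2% of all genes rose and 21.6% fell. The median was 0.0906 beside 0.0673 for all genes. SLC2A2 fell by 1.98 (SE 0.15, limma, adjusted p = 4.43e-08), while KLF10 rose by 1.24 ± 0.14 (adjusted p = 2.62e-06) and G6PC1 by 0.92 ± 0.15 (adjusted p = 0.00011). The count that rose was 3 without sh-p53 DMSO replicate 2, 4 without sh-p53 AICAR replicate 2 and 3 with array medians set equal, and the count that fell was 2 without sh-p53 AICAR replicate 1. Between the lines under AICAR, G6PC1 was lower in sh-p53, at -1.23 ± 0.15 (limma, adjusted p = 3.87e-05). FASN, the fatty acid synthase gene, was higher by 0.75 ± 0.15 (adjusted p = 0.00349). With DMSO the mean of G6PC1 was also lower in sh-p53, at 4.94 beside 5.39 in sh-con. For the difference between the lines in the AICAR response, 1 of the 19 was called higher and 0 lower, so G6PC1 did not pass as lower there.

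With Nutlin in sh-con 2 of the 19 ChREBP targets rose and 8 fell, where 11.3% of all genes rose and 18.9% fell, and the median was -0.206 beside 0.0123. G6PC1 rose by 1.89 ± 0.15 (limma, adjusted p = 1.99e-08), and ELOVL6, a fatty acid elongase gene, fell by 1.62 (SE 0.14, adjusted p = 1.07e-07). The count that fell was 5 without sh-con DMSO replicate 1 and 4 without sh-con Nutlin replicate 2, and the count that rose was 4 after quantile normalisation again and 1 with the stricter filter. In sh-p53 none of the 19 was called with Nutlin by limma, with 1 higher unadjusted, where 0.0796% of all genes were called.

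Of 3 glycolysis genes known as MondoA targets, HK2, a hexokinase gene, fell with AICAR, at -1.02 ± 0.19 in sh-con (limma, adjusted p = 0.000344) and -1.66 ± 0.19 in sh-p53 (adjusted p = 2.79e-06). LDHA, the lactate dehydrogenase A gene, differed by -0.28 ± 0.14 and -0.31 ± 0.14, and PFKFB3, which makes the activator of phosphofructokinase, by 0.49 ± 0.21 and 0.04 ± 0.21. Neither gene passed in either line (adjusted p = 0.125 and 0.0871 for LDHA, 0.0823 and 0.891 for PFKFB3). PFKFB3 passed in sh-con without sh-con AICAR replicate 2 (adjusted p = 0.0403) and with only the compared groups in the fit (0.0385). LDHA passed with array medians set equal, at adjusted p = 0.0461 (sh-con) and 0.0282 (sh-p53), and with an intensity trend (0.0344 and 0.0184). In sh-p53 it also passed after quantile normalisation again (0.0435). With Nutlin in sh-con HK2 fell, at -0.97 ± 0.19 (adjusted p = 0.000795), and PFKFB3 differed by -0.47 ± 0.21 (adjusted p = 0.103). The latter passed with only the compared groups in the fit (0.0299) and without sh-con Nutlin replicate 1 (-0.875). Its sh-con Nutlin arrays stood at 6.44 and 7.24 and its DMSO arrays at 7.29 and 7.33. The size of the PFKFB3 difference thus rested largely on 1 Nutlin array. LDHA fell, at -0.38 ± 0.14 (adjusted p = 0.0488), which no longer passed without sh-con DMSO replicate 1 (0.283), sh-con DMSO replicate 2 (0.0887) or sh-con Nutlin replicate 2 (0.341), after quantile normalisation again (0.0503) or with no filter on dim genes (0.0514).

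The MYC, MAX and MLX network holds the partners and rivals of MLX. With AICAR in sh-con 3 of its 10 tested members were called higher and 2 lower (median 0.000568), and in sh-p53 2 were higher and 3 lower (median 0.0578). Of all genes 14.6% were higher and 23.2% lower in sh-con (median 0.0353), and 16.2% and 21.6% in sh-p53 (median 0.0673). MXD1, a MAX partner that opposes MYC, rose by 2.20 ± 0.13 in sh-con and 1.96 ± 0.13 in sh-p53 (limma, adjusted p = 2.85e-09 and 1.5e-08). MYC fell, at -1.11 ± 0.14 and -1.17 ± 0.14 (adjusted p = 6.65e-06 and 4.11e-06). MGA, a large MAX partner, also fell, at -1.3 ± 0.17 and -1.08 ± 0.17 (adjusted p = 1.11e-05 and 7.83e-05). The count that rose in sh-con was 1 without sh-con DMSO replicate 1, without sh-con AICAR replicate 2 or with array medians set equal. In sh-p53 it was 1 without sh-p53 AICAR replicate 1. In sh-con Nutlin left 2 of the network's 10 genes higher and 2 lower, and the higher count was 0 without sh-con DMSO replicate 1, sh-con DMSO replicate 2 or sh-con Nutlin replicate 1. The lower count was 1 without sh-con DMSO replicate 1, sh-con DMSO replicate 2 or sh-con Nutlin replicate 2. Of all genes 11.3% were higher and 18.9% lower with Nutlin in sh-con. In sh-p53 none of the network's 10 was called with Nutlin by limma, also unadjusted, where 0.0796% of all genes were called.

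Of 16 tested genes of glucose transport and phosphorylation, 3 rose and 6 fell with AICAR in sh-con and 2 rose and 7 fell in sh-p53, with medians of -0.199 and -0.0792. Over all genes 14.6% rose and 23.2% fell in sh-con and 16.2% rose and 21.6% fell in sh-p53, with medians of 0.0353 and 0.0673. SLC2A1, the glucose transporter gene whose product TXNIP and ARRDC4 are known to draw from the cell surface, fell, at -1.51 ± 0.15 in sh-con and -2.07 ± 0.15 in sh-p53 (limma, adjusted p = 5.77e-07 and 2.64e-08). SLC2A3, another transporter gene, fell, at -1.35 ± 0.18 in sh-con and -2.19 ± 0.18 in sh-p53 (adjusted p = 1.17e-05 and 7.53e-08). Under AICAR SLC2A1 was lower in sh-p53 than in sh-con (-0.57 ± 0.15, adjusted p = 0.0232), which no longer passed without sh-con AICAR replicate 1 (0.184), sh-p53 AICAR replicate 1 (0.105) or sh-p53 AICAR replicate 2 (0.111). The difference of its AICAR responses did not pass (-0.55 ± 0.21, adjusted p = 0.258). The count of the list that rose with AICAR in sh-con was 5 after quantile normalisation again. In sh-con 3 of the 16 rose with Nutlin (5 after quantile normalisation again) and 4 fell, where 11.3% of all genes rose and 18.9% fell. Among those that fell was SLC2A3, at -1.24 ± 0.18 (limma, adjusted p = 3.66e-05). In sh-p53 none of the 16 was called with Nutlin by limma, with 1 lower unadjusted, where 0.0796% of all genes were called. HK2, G6PC1, SLC2A2 and GCKR stand in this list and in one of the target lists above.

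Alpha-arrestins recruit ubiquitin ligases of the NEDD4 family. With AICAR, 5 of 9 tested genes of the NEDD4 family and its adaptors fell and none rose by limma in sh-con. In sh-p53 5 fell with AICAR and none rose. In neither line was any higher at an unadjusted p under 0.05. The count of 5 in sh-p53 included SMURF1, which did not pass with any single array of that comparison left out (-0.383 to -0.518). SMURF1 did not pass there with no filter on dim genes either (-0.45, limma, adjusted p = 0.0557). Of all genes 23.2% were called lower in sh-con and 21.6% in sh-p53. The list's medians were -0.414 and -0.45, beside 0.0353 and 0.0673 for all genes. NEDD4 fell, at -1.46 ± 0.17 in sh-con and -1.21 ± 0.17 in sh-p53 (adjusted p = 3.74e-06 and 2.92e-05). NEDD4L, its close relative, stood at -1.37 ± 0.19 and -1.21 ± 0.19 (adjusted p = 1.86e-05 and 7.13e-05). WWP2 fell in both lines, at -1.08 ± 0.15 in sh-con and -0.72 ± 0.15 in sh-p53 (adjusted p = 1.94e-05 and 0.000965). WWP1 also fell in both, at -0.41 ± 0.15 and -0.76 ± 0.15 (adjusted p = 0.0417 and 8e-04), and its sh-con call was lost without sh-con DMSO replicate 1 (0.246), sh-con DMSO replicate 2 (0.0682) or sh-con AICAR replicate 2 (0.206), and with only the compared groups in the fit (0.0567). The count in sh-con was 3 without sh-con DMSO replicate 1, 3 without sh-con AICAR replicate 2 and 3 with only the compared groups in the fit. NEDD4 alone fell with Nutlin in sh-con, at -0.53 ± 0.17 (adjusted p = 0.0275), which no longer passed without sh-con DMSO replicate 1 (0.283), sh-con Nutlin replicate 1 (0.0574) or sh-con Nutlin replicate 2 (0.155). After quantile normalisation again it was lost too (0.0649) and 2 others rose. Of all genes 11.3% were called higher and 18.9% lower with Nutlin in sh-con. In sh-p53 none of the 9 was called with Nutlin by limma, also unadjusted, where 0.0796% of all genes were called.

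ARRB1, which encodes beta-arrestin 1, fell with AICAR, at -2.44 ± 0.14 in sh-con and -2.25 ± 0.14 in sh-p53 (limma, adjusted p = 1.9e-09 and 7.73e-09). It was the 1 gene tested of 3 further arrestins, and with Nutlin it differed by -0.05 ± 0.14 and -0.01 ± 0.14 (adjusted p = 0.822 and 0.994). In the thioredoxin system, whose key protein TXNIP binds, none of 10 tested genes passed with AICAR by limma. Of all genes 37.8% were called with AICAR in each line. At an unadjusted p under 0.05, 2 were higher in sh-con and 1 in sh-p53. TXN, the thioredoxin gene, differed by 0.23 ± 0.16 in each line (adjusted p = 0.258 and 0.263). Under quantile normalisation again 2 of the 10 rose in each line. With the stricter filter on dim genes 1 rose in each line (limma, adjusted p = 0.0443 in sh-con and 0.0496 in sh-p53). TXNRD1, a thioredoxin reductase gene, differed by -0.28 ± 0.13 in sh-p53 (adjusted p = 0.108) and passed as lower with array medians set equal (-0.433, adjusted p = 0.0371) and with an intensity trend (0.0467), which also called 2 higher in sh-con and 1 in sh-p53. With Nutlin in sh-con 1 of the 10 rose and 1 fell, where 11.3% of all genes rose and 18.9% fell. SRXN1, which restores oxidised peroxiredoxins, rose by 0.75 ± 0.13 (limma, adjusted p = 0.000317). PRDX6, a peroxiredoxin gene, fell, at -0.43 ± 0.13 (adjusted p = 0.0238). With the stricter filter PRDX2, another peroxiredoxin gene, also fell (-0.326, adjusted p = 0.0449). After quantile normalisation again TXNRD1 also rose (0.296, adjusted p = 0.0356). The PRDX6 call was lost without sh-con DMSO replicate 1 (0.163), sh-con DMSO replicate 2 (0.0708), sh-con Nutlin replicate 1 (0.0945) or sh-con Nutlin replicate 2 (0.0883).

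**Figure D4:**
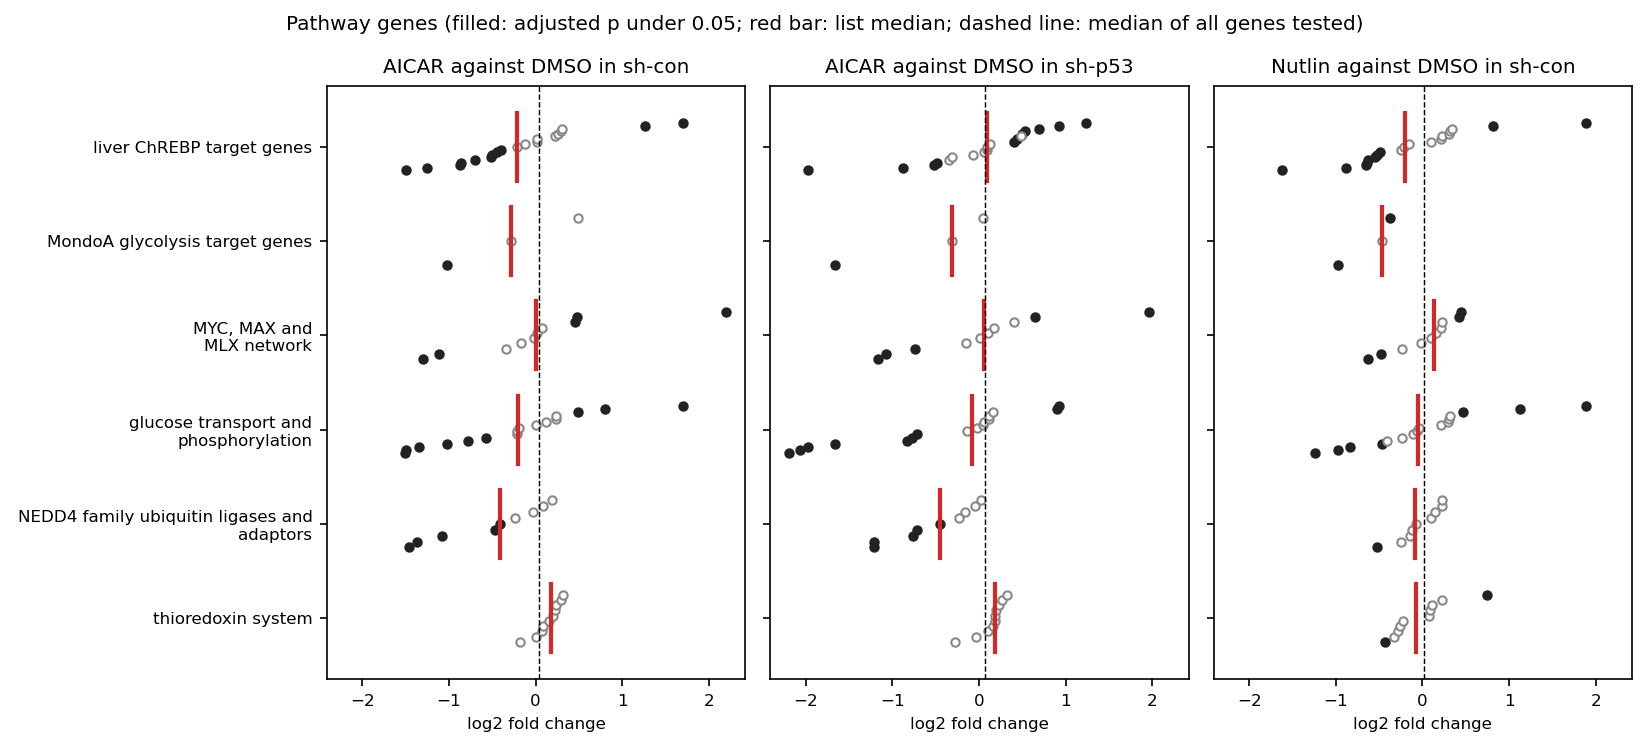
log2 fold change (x axis) of each tested gene of 6 pathway lists (rows) with AICAR in sh-con, AICAR in sh-p53 and Nutlin in sh-con; filled points passed at an adjusted p under 0.05, red bars are list medians and the dashed line is the median of all genes tested. The called points of the NEDD4 family all lie left of 0 (medians -0.414 and -0.45 with AICAR), and no point of the thioredoxin system is filled with AICAR.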

How the data were processed

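RNA expression was measured on 12 Affymetrix arrays from 200 ng of total RNA each, with HepG2 cells plated at 700000 per well. Per the submitters' processing notes, the authors used RMA and Partek, with versions and settings not given in the sources used here. The deposited values were log2 values from 2.14 to 14.33, with no detection calls. At low signal the log2 scale after RMA compresses changes, and RMA draws the arrays towards 1 distribution. Each of the 12 columns matched 1 sample, and the group was taken from the title.

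Of 33297 probe sets, 19460 had 1 symbol in the platform annotation, 1754 had several and 12083 were not listed. For genes with several probe sets the brightest was used, and genes below the 25th percentile of gene means (4.58) were left out. Group means were fitted on all 12 arrays with limma 3.58.1 in R 4.3.3 (6 residual degrees of freedom, 11.3 from the prior), in 9 comparisons, with Benjamini-Hochberg adjustment over all 13813 genes and calls at an adjusted p under 0.05, 2-sided. Errors are SE of the fit, and p-values rest on how far duplicate arrays lay apart. The fit was tested on simulated data.

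Members and gene lists were chosen with earlier results of these data known. Named were all members, up to 3 called genes of a list with the largest changes in a comparison, every gene of a list of 3, and the 5 genes most like ARRDC4 and TXNIP. ARRDC5 and ARRB2 were not analysed here. The 11 promoter windows of the 8 genes come from RefSeq and were searched by letters in Python 3.11.15. Alternatives were 2 other scalings, 2 other filters, the mean of probe sets, an intensity trend, only the compared groups, a replicate block and leaving out each array. The same alternatives were applied to the gene lists after the data had been seen.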

Additional observations from a re-analysis of the deposited data

How the results depend on the processing

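No called log2 difference of a member changed sign under any alternative run, and the calls of members that were lost or gained are given with each gene or below. The cause of these changes was not tested. The count of all genes called between the lines in DMSO was 175 with only the compared groups in the fit, against 89. With Nutlin in sh-p53 it was 28 with the stricter filter on dim genes, 27 with an intensity trend and 67 with only the compared groups, against 11. Between the lines in AICAR it was 1829 after quantile normalisation again, against 1219, and for the AICAR interaction 348 after quantile normalisation again, 89 after centring on array medians, 217 with the stricter filter and 277 with the trend, against 140. The number of members called between the lines in Nutlin was 1 after quantile normalisation again (MLX) and 1 with the stricter filter (ARRDC1), against 0. In AICAR it was 2 after quantile normalisation again (MLXIP and MLXIPL) and 0 with only the compared groups, against 1.

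Leaving out 1 array at a time gave 42 to 60 genes called between the lines in DMSO, 2061 to 3350 with Nutlin in sh-con and 5 to 9 in sh-p53. It gave 3173 to 5971 with AICAR in sh-con and 3361 to 4661 in sh-p53, 1716 to 2767 between the lines in Nutlin and 521 to 1038 in AICAR, and 653 to 986 and 40 to 200 for the Nutlin and AICAR interactions. Members called ranged from 1 to 2 with Nutlin in sh-con, 2 to 4 with AICAR in sh-con and 2 to 4 in sh-p53. They ranged from 0 to 1 between the lines in AICAR and from 0 to 1 for the Nutlin interaction.

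Replicate numbers are shared between groups, but the differences between replicates 1 and 2 correlated across genes at -0.558 to 0.567 over 15 pairs of groups, over 0.1 in 7, so the numbers were not taken to pair the samples. A replicate block gave 4273 genes called for Nutlin in sh-con (4179 without it) and 5303 for AICAR in sh-con (5221 without it), and the number of members called was the same in all 9 comparisons. With the block PFKFB3 passed in sh-con with AICAR (adjusted p = 0.0286) and with Nutlin (0.0391), and LDHA no longer passed with Nutlin (0.0539). The smallest difference of a member that passed was 0.49 on the log2 scale, and without detection calls the signal over background of each gene is unknown.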
